A study of Zea mays subsp. mexicana with 6 samples.

Results

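The most abundant seedling transcripts of teosinte (Zea mays ssp. mexicana, variety 8493) were taken as the unigenes with an FPKM of at least 500 in every one of the 6 libraries. FPKM counts the fragments of a unigene relative to its length in kilobases and to the fragments mapped in that library, and a unigene is the longest transcript of a gene in the authors' assembly. Of the 184280 unigenes listed, 96 met the rule, which is 0.0521%, and the 76 unigenes that the study names by identifier were to be left out but none of them reached it. The members were therefore chosen on their level in the same libraries, which makes the levels a description, and a unigene that dropped under 500 in any library could not be a member. Seedlings were 13 days old and belonged to 3 groups of 2 samples each. The control samples grew at 25°C and received neither treatment, the cold samples were held at 4°C for 12 h, and the drought samples were treated for 3 h with Hoagland solution that held 20% PEG2000, a polymer that lowers the water potential. Each sample pooled roots, stems and leaves of at least 3 seedlings, so that a smaller part of 1 organ in the pool and less RNA per cell cannot be told apart. The groups also differed in treatment length, and the drought group in the solution as well as in its PEG, so that these cannot be told apart from the stress itself.

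A green seedling devotes a large part of its messenger RNA to the chloroplast. Chlorophyll a/b binding proteins form the antennae of both photosystems, and in a C4 grass phosphoenolpyruvate carboxylase first fixes CO2 in the mesophyll, NADP-malate dehydrogenase makes malate, NADP-dependent malic enzyme releases the CO2 in the bundle sheath and Rubisco fixes it again. Aquaporins let water pass the plasma membrane and the tonoplast, and genes for translation, cytoskeleton and glycolysis make up much of the rest of a seedling's abundant messengers. A few abundant transcripts can hold a large share of a library, and since FPKM values are relative to the library, a lower share of these unigenes is matched by a higher share of others.

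Protein names were held for 25 of the 96 members, 20 by a maize hit and 5 by an Arabidopsis hit, and the other 71 are given by identifier. The green tissue of the pool was plain in these names, as 10 of the 25 belonged to the light reactions or to carbon fixation and the C4 cycle. The 8 annotated unigenes with the word root in their names, called root-marked here, held no member. They were glutamine synthetase isozymes and root cap genes rather than a tested marker set, and their summed FPKM was 1271 and 1440.4 in control, 979 and 1066 under cold and 1238 and 1222 under drought. The FPKM sums of the libraries lay between 967046 and 993409. Depths estimated from low FPKM values were within 1 to 1.15 times that of control replicate 1. The study lists the most clean reads for that library, so these estimates did not follow the order of the clean reads. Cold replicate 1 listed 117635 unigenes above 0, against 89243 to 99821 in the other libraries.

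The members spanned mean levels from 581 FPKM (c55182_g1, an NADP-malate dehydrogenase) to 4799 FPKM (c64253_g3). A mean of at least 1000 was held by 60 of them and a mean of at least 2000 by 27. From the lowest to the highest of the 6 libraries a member varied 1.80-fold at the median, under 1.5-fold in 21 members, under 2-fold in 65 and 3-fold or more in 6. The steadiest was c63739_g5 at 1.14-fold and the most variable was c64398_g1 at 4.26-fold. Within a group the 2 libraries of a member stayed within a ratio of 1.2 in all 3 groups for 34 members and within 1.5 for 88. The rank plot of member FPKM shows that most drought values lay low in each column while control and cold values were mixed. The lowest of the 6 values fell in a drought library for 63 members.

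**Figure D1:**
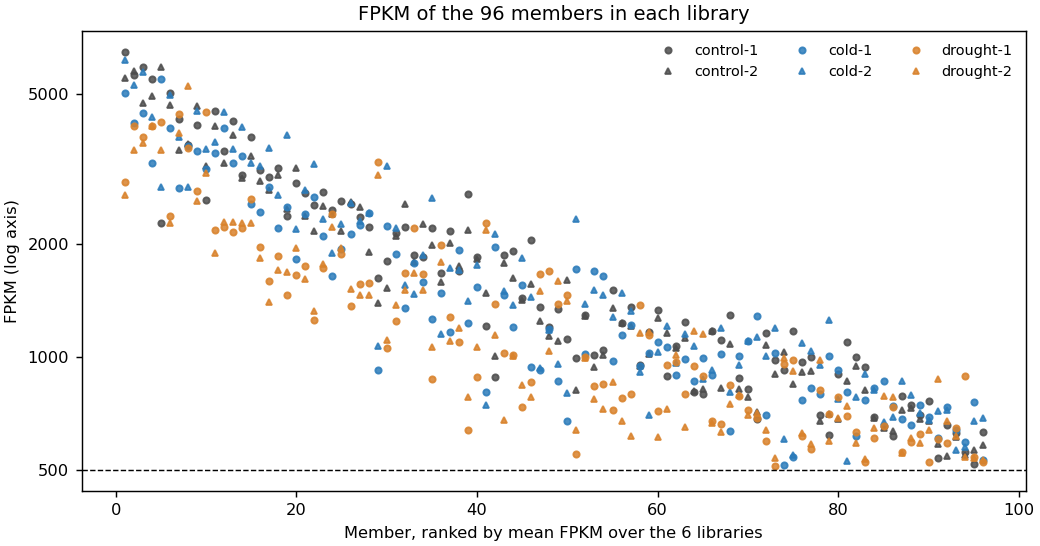
FPKM (log axis) of each of the 96 members in the 6 libraries, with members ranked by their mean FPKM on the horizontal axis, circles for replicate 1, triangles for replicate 2 and the dashed line at the threshold of 500. Drought points (orange) form the lower edge of the cloud for most members, and the lowest value of 63 members lies in a drought library.

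Together the 96 members held 18.5% and 18.0% of the FPKM sum of the control samples, 15.8% and 18.1% under cold and 14.0% and 13.5% under drought. Both drought libraries lay below all 4 others, whereas cold replicate 2 lay between the control libraries and cold replicate 1 below them. The group means were 18.3% ± 0.375 (SD, n = 2) in control, 17.0% ± 1.63 under cold and 13.8% ± 0.349 under drought. The drought share fell short of the control share by a difference of -4.51 percentage points (exact two-sided permutation p = 0.33, the smallest that 2 against 2 libraries allow), and the cold share by -1.31 points (p = 0.667, exact permutation test). A share of this kind is a share of transcripts corrected for length and does not depend on how a library is scaled. The drought samples held 75.3% of the control share.

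The lower drought share was seen in the 10 most abundant members and in the rest. The 10 most abundant members held 4.75% ± 0.0977 of the FPKM sum in control, 4.24% ± 0.355 under cold and 3.70% ± 0.152 under drought (SD, n = 2), and the other 86 held 13.5%, 12.7% and 10.1%. The 590 unigenes between 100 and 500 FPKM in all 6 libraries, the next level down, held 13.0% ± 0.108, 12.3% ± 0.209 and 12.2% ± 0.169, so that the drought samples kept 93.5% of their control share. The other unigenes with a mean FPKM of 10 to 100 held 41.9% in the control and 44.6% in the drought samples. To reach 50% of the FPKM sum, the control libraries needed 1701 and 1788 unigenes, the cold libraries 1798 and 1561 and the drought libraries 2127 and 2137, so both drought libraries spread their sum over more unigenes than the other 4. In drought samples 71 members had a lower mean share than in the control and summed to a difference of -5.30 points, and 25 had a higher one and summed to 0.787 points. The 10 largest losses made up -2.004 points of this. By level, the median drought change on the log2(FPKM + 1) scale was -0.60 over the 27 members with a mean of at least 2000 FPKM, -0.58 over the 33 at 1000 to 2000 and -0.16 over the 36 under 1000. Of these, 11, 12 and 7 were called lower in the limma fit described next, which called 2.83% of all tested unigenes lower. A less abundant member could not fall as far and stay at 500 FPKM in every library, so these levels are not comparable.

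**Figure D2:**
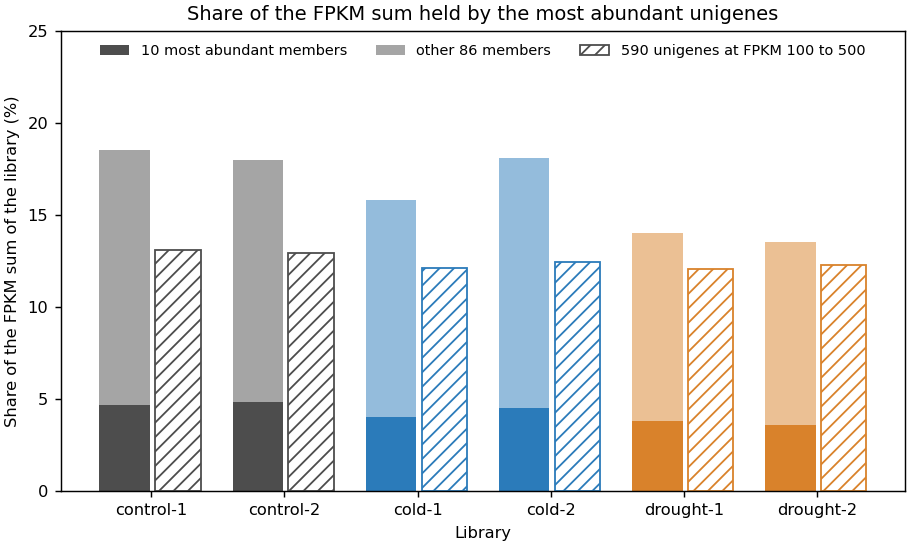
Share of the FPKM sum of each library (percent, from 0) held by the 10 most abundant members (dark), the other 86 members (light, stacked on top) and the 590 unigenes at 100 to 500 FPKM in all libraries (hatched). The stacked bars reach 18.5% and 18.0% in control, 15.8% and 18.1% under cold and 14.0% and 13.5% under drought, while the hatched bars lie between 12.1% and 13.1%.

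Fold changes were computed on log2(FPKM + 1) in 1 limma fit of the 38768 unigenes whose mean FPKM was 1 or more, and a unigene was called at a Benjamini-Hochberg adjusted p under 0.05 over all of them. In cold against control the member log2 fold changes had a median of -0.07 and an interquartile range of 0.52, and ran from -0.89 to 1.15, with 38 members above 0 and 58 below. In drought against control the median was -0.44, the interquartile range 0.74 and the range -1.78 to 1.07, with 26 above and 70 below. The shift was thus larger in drought and the changes lay further apart, yet only 2 members in cold and 8 in drought differed at least 2-fold. Over all tested unigenes the medians were -0.18 in cold and 0.01 in drought, with interquartile ranges of 1.11 and 0.59. Against these, the members were spread less widely in cold. In drought their interquartile range was wider, whereas their SD (0.50 against 0.69) and their distance from the 5th to the 95th percentile (-1.09 to 0.38 against -0.90 to 1.203) were narrower, and 8.33% of the members against 10.8% of all tested unigenes differed at least 2-fold. The rule leaves out any unigene that fell under 500 FPKM in a library, which limits these spreads and counts of the members. With a mean of at least 500 as the rule, the interquartile range was 0.70 in cold and 0.80 in drought. For the 590 unigenes at 100 to 500 FPKM the medians were -0.10 and -0.09 and the interquartile ranges 0.58 and 0.47. The log2 ratio between the 2 libraries of 1 group had an SD over members of 0.23 in control, 0.29 under cold and 0.22 under drought, beside SDs of 0.41 for the cold and 0.50 for the drought changes.

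The cold direction depended on the scaling between libraries. Median-of-ratios scaling moved the median of all tested unigenes in cold from -0.18 to 0.00, and the member median from -0.07 to 0.16, with 63 members above 0. Relative to the median of all tested unigenes, the member median in cold was 0.11 with the deposited values and 0.15 after that scaling, but 0.01 when 2 libraries had to reach an FPKM of 1, -0.11 with no filter on low values, 0.22 without cold replicate 1, 0.06 without control replicate 2 and -0.00066 without cold replicate 2, so its sign changed with these choices. In drought the same difference was -0.45 with the deposited values and ran from -0.52 to -0.40 over the refits of the same 96 members. Other membership thresholds moved the drought median itself further, to -0.20 at 250 FPKM and -0.60 at 1000 FPKM. The 2 cold libraries also differed: 70 of 96 members were higher in cold replicate 2, by 0.21 (log2) at the median, and without cold replicate 1 the member median in cold was 0.02.

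**Figure D3:**
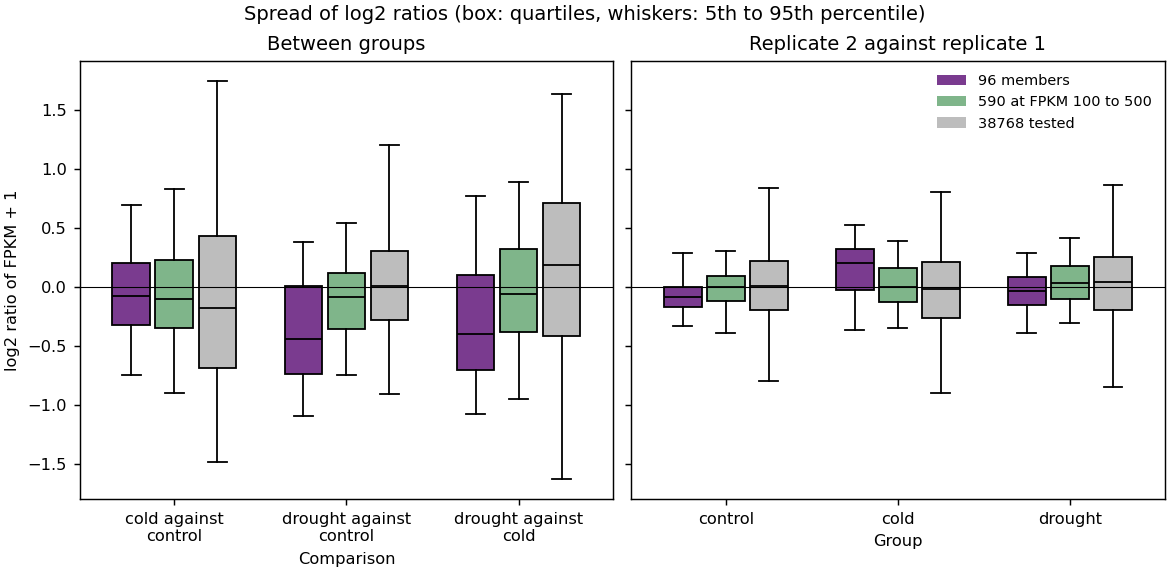
Log2 ratios of FPKM + 1 between groups (left) and between the 2 libraries of each group (right) for the 96 members, the 590 unigenes at 100 to 500 FPKM and the 38768 tested unigenes, with boxes at the quartiles, a line at the median and whiskers at the 5th and 95th percentiles. The member box sits lowest in drought against control (median -0.44), against 0.01 for all tested unigenes, and the cold replicate box of the members sits above 0 (median 0.21).

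In cold against control 9 members were called higher (14.8% of all tested unigenes were called higher) and 13 lower (22.4%), which is 9.38% and 13.5% of the members. These shares cannot be read as few responses, since the rule left out unigenes that fell under 500 FPKM in any library. With a mean of at least 500 as the rule, 56 of 151 members were called in cold. Median-of-ratios scaling turned the split of 9 higher and 13 lower into 18 higher and 4 lower. In drought against control 2 members were called higher (background 5.69%) and 30 lower (background 2.83%), which is 31.2% of the members, against 8.14% of the unigenes at 100 to 500 FPKM. The 2 drought libraries lay below both control libraries for 65 members (background 24.6%) and above them for 12 (background 27.8%). In cold the corresponding counts were 35 below (background 43.8%) and 27 above (background 28.1%). The drought calls were not stable, although all 32 kept their direction in each refit. Of the 32, 5 were called again with no filter on low values, 10 with no mean-variance trend and 15 with the replicate number as a block, in limma. Most of the 32 were also lost when any 1 library was left out. A fit of the control and drought libraries alone called 1 of them, c64398_g1. Of the 22 cold calls, 13 were made again without drought replicate 2, 11 without drought replicate 1, 6 without control replicate 1 or cold replicate 2, 5 without cold replicate 1 and 4 without control replicate 2, and 9 in a fit of the control and cold libraries alone. Of the members named in the text, 2 of 14 cold calls (c59282_g1 and c62387_g4) and 0 of 13 drought calls held whichever library was left out, while 3 of the cold and 10 of the drought calls were lost in each of the 6 fits. The drought calls lost in each of these 6 fits were those of c49564_g1, c50873_g1, c56550_g4, c57059_g2, c58087_g1, c58649_g2, c61768_g1, c64253_g1, c64253_g3 and c82773_g1. Under a stricter rule, a log2 fold change of 2 or more in size with an adjusted p under 0.005, limma called 0 members in any comparison, a count that the floor of 500 FPKM also limits. Of all tested unigenes, 2.16% passed it as higher and 1.11% as lower in cold, 0.725% and 0.0593% in drought, and 1.87% and 1.81% in drought against cold. The largest member changes were 1.15 in cold and 1.78 in drought in size. At an unadjusted p under 0.05, 28 members passed in cold and 56 in drought, with 48.3% and 22.6% of all tested unigenes.

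The 5 annotated members of the light reactions all lay lower in both drought libraries than in both control libraries, and 2 of them were called. Over all 96 members 67.7% lay lower in this way and 31.2% were called lower, against 24.6% and 2.83% of all tested unigenes. Both called light reactions members were CP26 forms, a minor antenna protein of photosystem II. The more abundant one, c49564_g1, stood at 2538 and 2161 FPKM in control, 2658 and 3248 under cold and 1252 and 1325 under drought. Its drought mean was 0.549 times its control mean, with no overlap of libraries (log2 fold change -0.86 ± 0.16 (SE), adjusted p = 0.0303, limma). This call was lost when any library was left out. The less abundant, c51464_g1, stood at 979.6 and 899.8 FPKM in control, 1025 and 1189.9 under cold and 513 and 539 under drought and showed the same order of groups (log2 fold change -0.84 ± 0.13 (SE), adjusted p = 0.0163, limma). The call of c51464_g1 was lost in a fit of the control and drought libraries alone, and when any control or drought library was left out. Reads of the 2 similar CP26 unigenes can be divided between them by the authors' estimate, so their separate levels are uncertain.

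The other 3 light reactions members were lower in drought without being called. A chlorophyll a/b binding protein of the photosystem I antenna (c46978_g1) stood at 3144 and 2939 FPKM in control, 2428 and 3220.4 under cold and 1962 and 1828 under drought. Its drought values were the lowest of all libraries (log2 fold change -0.68 ± 0.17 (SE), adjusted p = 0.075, limma). For the chlorophyll a-b binding protein M9 (c45105_g1), another antenna protein, the values were 1847 and 2261 in control, 1579 and 1870.3 under cold and 1658 and 1508 under drought, and for photosystem I reaction center subunit VI (c54427_g1), a small subunit of that photosystem's core, 1289 and 1286 in control, 1016 and 1385 under cold and 998 and 993 under drought. The cold libraries of these 3 overlapped the control range, those of both CP26 unigenes lay above it, and no member of the group was called in cold with the deposited values. After median-of-ratios scaling c51464_g1 was called higher in cold. As a group the 5 members held 0.998% ± 0.0154 of the FPKM sum in control, 0.994% ± 0.167 under cold and 0.650% ± 0.0137 under drought (SD, n = 2). They made up 88.8% of the FPKM of the 15 annotated light reactions unigenes tested, of which 4 were called lower (background 2.83%) and 0 higher (5.69%) in drought, and 2 higher (14.8%) and 0 lower (22.4%) in cold.

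The 5 members of carbon fixation and the C4 cycle were likewise lower in both drought libraries than in both control libraries (67.7% of all members were), and 2 of them were called (31.2% of all members were called lower). Glyceraldehyde-3-phosphate dehydrogenase B (c61768_g1), a chloroplast enzyme of the Calvin cycle, stood at 3009 and 2786 FPKM in control, 2832 and 3603 under cold and 1586 and 1396 under drought. Its drought mean was 0.515 times its control mean (log2 fold change -0.96 ± 0.17 (SE), adjusted p = 0.0254, limma). NADP-dependent malic enzyme (c57059_g2) stood at 2548 and 2583 FPKM in control, 2121 and 2572 under cold and 1365 and 1511 under drought, also with no overlap between control and drought (log2 fold change -0.84 ± 0.15 (SE), adjusted p = 0.0261, limma). Both calls were lost when any library was left out. The Rubisco small chain (c59441_g6), the most abundant annotated photosynthesis member, stood at 3526 and 3287 FPKM in control, 4064 and 4492 under cold and 2215 and 2289 under drought, highest in both cold and lowest in both drought libraries. Its drought change missed the threshold (-0.60 ± 0.14 (SE), adjusted p = 0.0554, limma), and its cold change of 0.33 ± 0.14 (SE) was called after median-of-ratios scaling but not with the deposited values (adjusted p = 0.11, limma).

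Phosphoenolpyruvate carboxylase 1 (c59465_g1), the enzyme that starts the C4 cycle, stood at 1795 and 1524 FPKM in control, 2222 and 3225 under cold and 1056 and 1105 under drought. It was the only photosynthesis member called in cold against control with the deposited values (log2 fold change 0.69 ± 0.21 (SE), adjusted p = 0.044, limma), and its cold libraries also stood apart from each other. The call was lost in the separate fit of 4 libraries, with no mean-variance trend, and when any library but cold replicate 1 was left out (adjusted p up to 0.205 in limma). Its drought change was -0.61 ± 0.21 (SE) and not called (adjusted p = 0.148, limma). NADP-malate dehydrogenase (c55182_g1), the least abundant of the group, stood at 629 and 582 in control, 532 and 686 under cold and 524 and 532 under drought, with a small gap between control and drought. The 5 members held 1.15% ± 0.0509 of the FPKM sum in control, 1.34% ± 0.213 under cold and 0.702% ± 0.00660 under drought (SD, n = 2). Directly compared, 4 of them were called lower in drought than in cold, as were 3 of the light reactions members (background 14.2% of all tested unigenes). Of the 20 tested unigenes of this list, members included, 8 were called lower and 3 higher in drought (background 2.83% and 5.69%), and 2 were called in each direction in cold (background 22.4% lower and 14.8% higher). Beside these lower photosynthesis levels, 2 of the 8 root-marked unigenes lay lower (background 24.6%) and 1 higher (background 27.8%) in both drought libraries than in both control libraries, and 5 overlapped. Of those that overlapped, c12220_g1, c39734_g2 and c62730_g4 stayed at or under 4.44 FPKM in every library, too low for their overlap to be read. The part of pool composition in these differences was not tested.

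**Figure D4:**
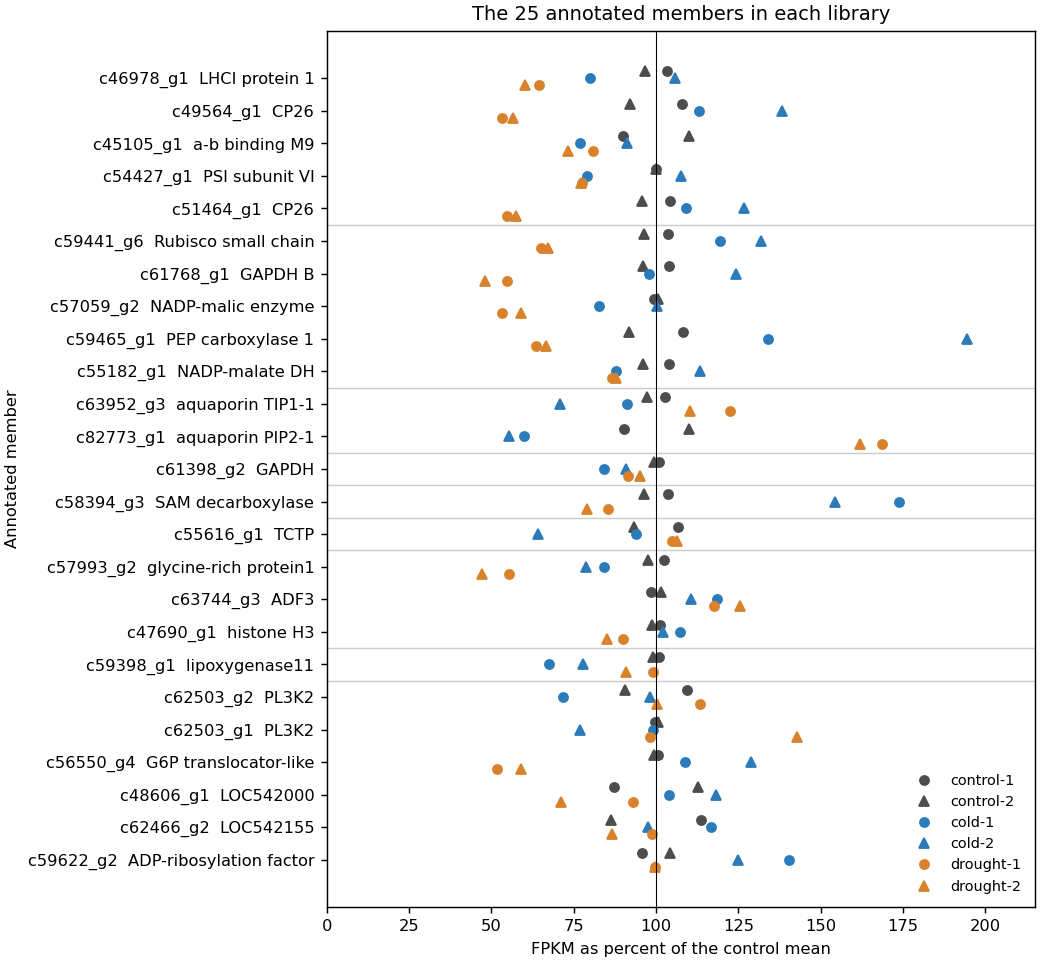
FPKM of the 25 annotated members in each library as a percent of the control mean of that unigene, with 1 row per member grouped by function, circles for replicate 1 and triangles for replicate 2. All 10 members of the light reactions and carbon fixation (upper rows) have both drought points left of both control points, while the 2 aquaporins have drought points on the right and cold points on the left.

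The 2 aquaporin members lay on the other side of the control in drought. PIP2-1 (c82773_g1), a water channel of the plasma membrane, stood at 1209.5 and 1475 FPKM in control, 805 and 744 under cold and 2265 and 2175 under drought. It was called lower in cold (log2 fold change -0.79 ± 0.14 (SE), adjusted p = 0.00989, limma) and higher in drought (log2 fold change 0.73 ± 0.14 (SE), adjusted p = 0.0337, limma), with no overlap among the 3 groups. The drought call was lost when any library was left out, and the cold call without control replicate 2 or either cold library. TIP1-1 (c63952_g3), a water channel of the tonoplast, stood at 1669 and 1577 FPKM in control, 1482 and 1147 under cold and 1987 and 1791 under drought. The order of its groups was the same, but neither change against the control was called (adjusted p = 0.178 in cold and 0.51 in drought, limma). Together they held 0.306% ± 0.0136 of the FPKM sum in control, 0.211% ± 0.0265 under cold and 0.425% ± 0.0207 under drought (SD, n = 2). Among the 64 annotated transport and membrane unigenes tested, 8 were called higher and 8 lower in drought (background 5.69% and 2.83%), and 13 higher and 12 lower in cold (background 14.8% and 22.4%).

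Outside photosynthesis and water transport, 5 annotated members were called. S-adenosylmethionine decarboxylase (c58394_g3), an enzyme of polyamine synthesis, stood at 1009 and 939 FPKM in control, 1692 and 1505 under cold and 833 and 771 under drought and rose in cold (log2 fold change 0.71 ± 0.12 (SE), adjusted p = 0.00905, limma). An ADP-ribosylation factor (c59622_g2), a small GTPase of vesicle traffic, stood at 518 and 565 in control, 759 and 676 under cold and 539.6 and 539 under drought and was called higher in cold (log2 fold change 0.41 ± 0.11 (SE), adjusted p = 0.0381, limma). Leaving out any 1 of the 6 libraries ended the second call (adjusted p 0.074 to 0.179, limma), and so did the separate fit and the fit with no mean-variance trend. The first was lost without either control library or cold replicate 1 (adjusted p up to 0.0683, limma). Lipoxygenase11 (c59398_g1), of the enzyme family that oxidizes polyunsaturated fatty acids, stood at 2453 and 2405 FPKM in control, 1639 and 1892 under cold and 2405 and 2209 under drought. It was called lower in cold (log2 fold change -0.46 ± 0.14 (SE), adjusted p = 0.0435, limma), a call lost after median-of-ratios scaling and when any 1 library was left out (adjusted p 0.0976 to 0.255, limma).

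In drought 2 further annotated members fell. Glycine-rich protein1 (c57993_g2) stood at 1333 and 1270.4 FPKM in control, 1096 and 1026 under cold and 718 and 613 under drought and fell to 0.511 times its control mean (log2 fold change -0.97 ± 0.13 (SE), adjusted p = 0.0111, limma). A glucose-6-phosphate/phosphate translocator-like protein (c56550_g4), named after a plastid carrier of sugar phosphates, stood at 1433 and 1412 FPKM in control, 1548 and 1834 under cold and 737 and 841 under drought and was lowest in both drought libraries (log2 fold change -0.85 ± 0.14 (SE), adjusted p = 0.021, limma). The cold libraries of the first lay below the control and those of the second above it, in neither case with a call from the deposited values, although the second was called higher in cold after median-of-ratios scaling. Both drought calls were lost in the separate fit. The call of the second was lost when any library was left out, and that of the first in most of these fits.

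The remaining 8 annotated members were not called in cold or drought, except that actin-depolymerizing factor 3 was called higher in cold after median-of-ratios scaling. Glyceraldehyde 3-phosphate dehydrogenase (c61398_g2), a glycolytic enzyme often used as a reference transcript, stood at 1068 and 1052 FPKM in control, 892 and 963 under cold and 969 and 1009 under drought. Histone H3 (c47690_g1), a core protein of chromatin, stood at 701 and 684 in control, 742 and 707 under cold and 624 and 589 under drought, and actin-depolymerizing factor 3 (c63744_g3), which severs actin filaments, at 614 and 634 in control, 739 and 689 under cold and 734 and 783 under drought. The translationally-controlled tumor protein homolog (c55616_g1) stood at 1165 and 1018 in control, 1026 and 700.0 under cold and 1144 and 1162 under drought, with cold replicate 2 alone below the other 5. The 2 unigenes with a PL3K2 hit were among the 10 most abundant members: c62503_g2 stood at 4289 and 3543 in control, 2804 and 3843 under cold and 4433 and 3931 under drought and c62503_g1 at 3653 and 3687 in control, 3638 and 2822 under cold and 3602 and 5242 under drought. The last 2, given only as LOC542000 precursor (c48606_g1) and uncharacterized protein LOC542155 (c62466_g2), had mean levels of 999 and 792 FPKM, and their cold libraries overlapped the control. 

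The other 8 of the 10 most abundant members carried no annotation held here. The first, c64253_g3, stood at 6466 and 5523 FPKM in control, 5037 and 6162 under cold and 2918 and 2691 under drought, and its partner from the same assembly component, c64253_g1, at 5018 and 4680.2 in control, 4058 and 4969.8 under cold and 2368 and 2274 under drought. Their drought means were 0.468 and 0.479 times the control means (log2 fold change -1.09 ± 0.17 (SE), adjusted p = 0.0194 and log2 fold change -1.06 ± 0.16 (SE), adjusted p = 0.0158, limma), and their cold libraries were mixed with the control. This pair alone accounted for 0.329 and 0.260 points of the share lost in drought. For c62030_g1 the values were 5637 and 5747 in control, 4178 and 5297 under cold and 4105 and 3541 under drought, for c60281_g3 5914 and 4730.2 in control, 4448 and 5719 under cold and 3839 and 3710.1 under drought and for c54550_g1 4132 and 4659.6 in control, 3533 and 4505 under cold and 2766 and 2594 under drought. All 3 were lowest in the drought libraries, without a call (adjusted p = 0.123, 0.217 and 0.0667, limma). For c64588_g1 the values were 5497 and 4951 in control, 3269 and 4342 under cold and 4106 and 4105 under drought, with the drought values inside the cold range, and c64181_g3 was the only unannotated one of these with its highest mean in drought, at 2618 and 3214 in control, 3163 and 3572 under cold and 4475 and 3079 under drought.

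The fifth by mean level, c57144_g3, was set apart by its replicates. It stood at 2276 and 5910.2 FPKM in control, 5494 and 2834 under cold and 4203 and 3541 under drought, so that the control libraries differed 2.60-fold and the cold libraries 1.94-fold. The other 5 unigenes of its component stayed at or under 49.4 FPKM in every library. The cause of the replicate gaps was not tested. No group difference of this unigene exceeded its replicate spread.

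Among members whose cold libraries stood clear of the control, the largest increases were those of c64357_g1 and c59282_g1. For c64357_g1 the values were 993 and 817 FPKM in control, 1712 and 2331 under cold and 552 and 638 under drought (log2 fold change 1.15 ± 0.20 (SE), adjusted p = 0.00838 in cold, limma), and drought lay below the control. For c59282_g1 they were 882 and 1005 in control, 1965 and 2127 under cold and 1379.8 and 1139 under drought (log2 fold change 1.12 ± 0.15 (SE), adjusted p = 0.00419 in cold, limma), and drought lay above the control. Both were called higher in cold and neither was called in drought. Next came c62387_g4 at 683 and 711 in control, 1287 and 1131 under cold and 687 and 708 under drought (log2 fold change 0.79 ± 0.12 (SE), adjusted p = 0.00552, limma) and c59193_g1 at 620.0 and 704 in control, 1005 and 1256 under cold and 706 and 597 under drought (log2 fold change 0.76 ± 0.16 (SE), adjusted p = 0.0165, limma), whose drought values were mixed with the control, and the decarboxylase named above. All 5 also passed after median-of-ratios scaling.

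The largest decreases in cold were those of c64398_g1, c64397_g1, c59082_g1, c56578_g1 and the aquaporin PIP2-1. The values of c64397_g1 were 1173 and 849 FPKM in control, 541 and 547 under cold and 982 and 916 under drought (log2 fold change -0.87 ± 0.17 (SE), adjusted p = 0.0128, limma), those of c59082_g1 1115 and 1598 in control, 675 and 803 under cold and 1458 and 1404 under drought (log2 fold change -0.86 ± 0.20 (SE), adjusted p = 0.0213, limma) and those of c56578_g1 921 and 1028 in control, 514 and 605 under cold and 956 and 991 under drought (log2 fold change -0.80 ± 0.13 (SE), adjusted p = 0.00744, limma). All 3 had drought values inside the control range and were not called in drought. The call of c59082_g1 was lost after median-of-ratios scaling.

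In drought the largest decrease among all members was that of c64398_g1. It stood at 2713 and 2178 FPKM in control, 1228 and 1404 under cold and 637 and 779.8 under drought and fell in both treatments (log2 fold change -0.89 ± 0.18 (SE), adjusted p = 0.013 in cold, log2 fold change -1.78 ± 0.18 (SE), adjusted p = 0.00492 in drought, limma), with the 3 groups apart. Others with large decreases were c58087_g1 at 1866 and 1771 in control, 1458 and 1499 under cold and 1020.2 and 679 under drought (log2 fold change -1.13 ± 0.20 (SE), adjusted p = 0.0277, limma) and c58649_g2 at 2041 and 1562 in control, 942 and 1439 under cold and 859 and 783 under drought (log2 fold change -1.12 ± 0.24 (SE), adjusted p = 0.0451, limma), the second of which lost its call after median-of-ratios scaling. Both calls were lost in the separate fit, with no mean-variance trend and when any library was left out. The drought values of c58767_g4 were as low, at 2205 and 1987 in control, 1259.7 and 2647 under cold and 872 and 1062 under drought, but its cold libraries differed 2.10-fold and it was not called (-1.12 ± 0.34 (SE), adjusted p = 0.121, limma).

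The largest increase in drought was that of c50873_g1, which stood at 1622 and 1394 FPKM in control, 921 and 1066 under cold and 3299 and 3044 under drought. It was called higher in drought (log2 fold change 1.07 ± 0.15 (SE), adjusted p = 0.0125, limma) and lower in cold (log2 fold change -0.60 ± 0.15 (SE), adjusted p = 0.0249, limma), the second call being lost after median-of-ratios scaling. Both calls were lost in the separate fits and when any library was left out. c50873_g1 and PIP2-1 were the 2 members called in opposite directions against the shared control, and 4 members were called lower in both treatments. After these, c59282_g1, c55564_g2 and c29324_g1 had the largest increases with libraries clear of the control, none of them called. The values were 951 and 943 in control, 946 and 909 under cold and 1375 and 1155 under drought for c55564_g2 and 699 and 673 in control, 797 and 949.7 under cold and 814 and 982 under drought for c29324_g1. Of the 96 members, 26 were called lower in drought only, 9 higher in cold only, 7 lower in cold only, and 48 in neither treatment. Such combinations were not counted over all tested unigenes, so these counts cannot be set against a background. Singly, 14.8% of all tested unigenes were called higher and 22.4% lower in cold, and 5.69% and 2.83% in drought.

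**Figure D5:**
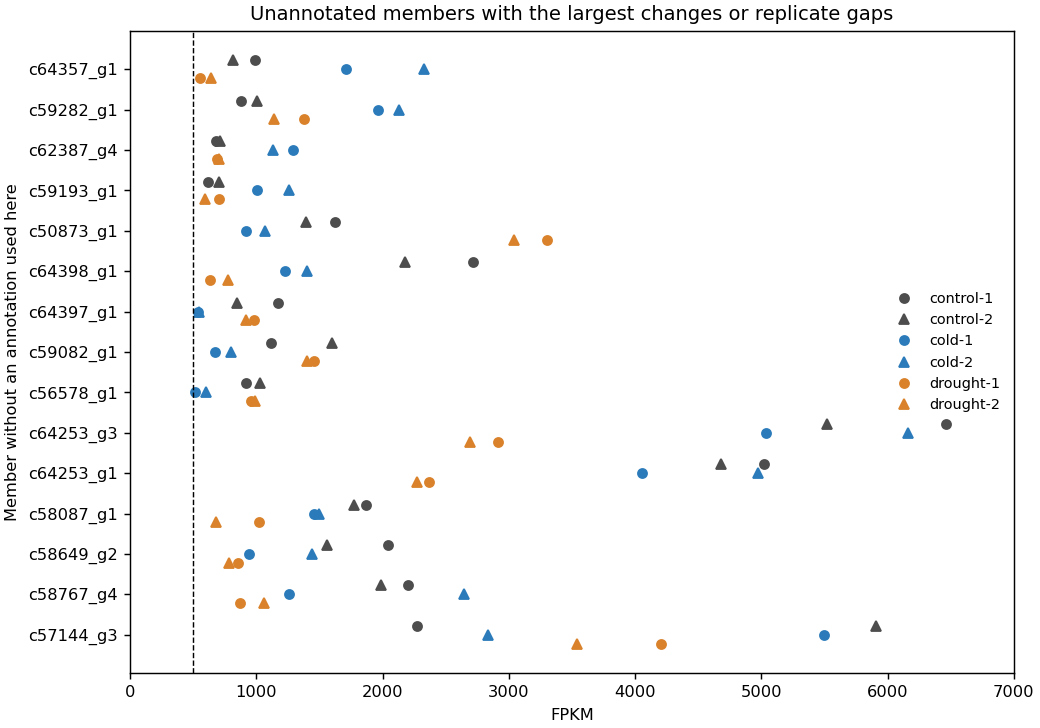
FPKM (linear axis) in the 6 libraries for 15 members without an annotation used here: those with the largest cold or drought changes, both unigenes of component c64253, and c57144_g3, with the dashed line at the threshold of 500, circles for replicate 1 and triangles for replicate 2. The drought points of c64398_g1 lie near the line at 637 and 779.8 while its control points lie at 2713 and 2178, and the control points of c57144_g3 lie far apart at 2276 and 5910.2.

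Compared directly, drought against cold gave a member median of -0.40 with an interquartile range of 0.80, against 0.19 and 1.12 for all tested unigenes. After median-of-ratios scaling the member median was -0.64. In this comparison 40 members were called lower in drought (background 14.2%) and 9 higher (background 23.8%). The drought libraries lay below both cold libraries for 59 members (background 27.2%) and above them for 13 (background 43.9%).

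The steadiest members across treatments were c63739_g5, c57144_g3, c62466_g2, c62087_g4 and c41687_g1, whose larger absolute log2 fold change was between 0.05 and 0.18, with a sign that turned under at least 1 alternative for each. For c63739_g5 the values were 628 and 613 FPKM in control, 639 and 565 under cold and 646 and 616 under drought, with the 2 cold replicates further apart than the group means. Those of c62087_g4 were 1862 and 1783 in control, 1773 and 1472 under cold and 2206 and 1666 under drought and those of c41687_g1 1203 and 1136 in control, 1187 and 1176 under cold and 1696 and 1033 under drought, where drought replicate 1 stood above the rest in both. For c57144_g3 the small mean change covers the replicate gaps given above, so the order of this list does not mean that each member was constant.

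The 96 members came from 85 assembly components, of which 11 held 2 members. Both partners had negative drought changes in 9 of the 11 pairs, and the gap between partners was under 0.3 on the log2 scale in 8. The largest cold gap was that of component c64071, where c64071_g2 stood at 1691 and 1748 FPKM in control, 1920.3 and 1705 under cold and 1095 and 1194 under drought, with cold and control overlapping, and c64071_g1 at 1291 and 1083 in control, 635 and 804 under cold and 841 and 749 under drought, with both cold libraries below the control. Since partners share sequence and the authors' estimate divides reads between them, the pairs are not independent. Summed over all 267 unigenes of these components, the share of the FPKM sum was 19.1% in control, 17.9% under cold and 14.5% under drought.

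At the threshold, the members with the lowest minimum were c51464_g1 (513 FPKM in drought replicate 1), c56578_g1 (514 in cold replicate 1) and c59622_g2 (518 in control replicate 1). Just outside were c56057_g2 (499 in drought replicate 1), c64671_g1 (498 in cold replicate 2) and c43615_g1 (494 in drought replicate 1). In at least 1 library 265 unigenes reached 500 FPKM, so 169 did so in some libraries but not all. Of these, 37 reached it in both cold libraries and no other, 16 in both drought libraries and no other, and 6 in both control libraries and no other. Of the 96 unigenes with the highest mean FPKM, 85 were members.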

How the data were processed

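The authors extracted RNA from pooled seedling tissue, selected poly(A) RNA, sequenced read pairs on an Illumina HiSeq2500, assembled the merged reads with Trinity, mapped each sample with Bowtie 1.1.1 and derived read numbers per unigene with RSEM. The deposited values are FPKM with 2 decimals for 184280 unigenes in 6 libraries, with no column left unassigned (0). No read counts or coordinates were used, and no genome was involved, so the test was not a count test. Reads of near-identical unigenes can be split between them.

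Values were tested as log2(FPKM + 1). The 38768 unigenes whose mean FPKM was 1 or more entered 1 model of the 6 libraries in limma 3.58.1 (R 4.3.3), with a mean-variance trend in the empirical Bayes step, 3 residual and 2.86 prior degrees of freedom, and Benjamini-Hochberg adjustment over all of them in each of 3 comparisons. Errors of levels are SD over 2 libraries and errors of fold changes are SE of the fit. Shares of the FPKM sum were compared with exact permutation tests. The 2 samples of a group are biological repeats, each a pool of at least 3 seedlings. Read depth is not in the deposited table. The study lists clean reads per sample, which did not enter the fits. Relative depth was estimated from unigenes at 0.3 to 1 FPKM and did not follow the order of those clean reads.

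The members and gene lists were chosen with earlier results of these data known. Named are the 10 members with the highest mean, the 5 largest increases and decreases per treatment among members with libraries clear of the control, the 5 with the smallest changes, the annotated members, and the 3 unigenes on each side of the threshold. Maize names were used from 80% identity and Arabidopsis names from 50%, out of the part of the study's annotation table used here, with functional lists made by words in the names. Of the 20 maize names, 16 matched a symbol in the RefSeq table of assembly Zm-B73-REFERENCE-NAM-5.0. Fold changes of members that were neither called nor at least 0.3 in size are given as library values only, apart from the size range of the 5 smallest changes, a limit set after the data were seen.

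On simulated data of cold against control with 38768 unigenes, limma called 60 of 100 unigenes changed by 0.5 on the log2 scale and 96 of 100 changed by 1, 0 with the wrong sign, and 2.28% of the unchanged ones. The changed unigenes were drawn from those with a mean FPKM of at least 100, with independent normal noise. The other unigenes called in cold kept their fitted changes. Drought, where fewer unigenes were called, was not simulated, so these rates hold for the cold setting only. The alternatives were another pseudocount, other filters, 2 scalings, separate fits, a replicate block, a variance without trend, leaving out each library, other membership thresholds and, added after the data were seen, sums over assembly components. Tables and figures were made with Python 3.11.15, matplotlib 3.10.9, pandas 2.3.3, scipy 1.17.1 and numpy 2.4.6.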

Additional observations from a re-analysis of the deposited data

How the results depend on the processing

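There were 2 libraries a group, and read depth is given by the study as clean reads but not in the deposited table. The direction of the member median in drought against control and in drought against cold was negative under every alternative run, and that of cold against control turned positive after median-of-ratios scaling (0.16) and without cold replicate 1. Counts of called members moved most. In cold, 22 members were called, and 11 with no filter on low FPKM, 9 in separate fits of 4 libraries and 14 with no mean-variance trend. In drought against control, 32 were called, and 5 with no filter, 17 when 2 libraries had to reach an FPKM of 1, 1 in separate fits and 10 with no mean-variance trend. The cause of these moves was not tested.

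Samples of the same number did not deviate together over the tested unigenes (r = -0.03 for cold and control, -0.01 for drought and control and 0.04 for drought and cold). Over the members r was -0.29, -0.12 and 0.10 in the same order. With 2 libraries a group, these values cannot show whether samples of the same number were handled together. The replicate number as a block gave 17 called members in cold, 15 in drought against control and 43 in drought against cold (49 without it). Leaving out each library in turn gave 4 to 13 called members in cold, 0 to 5 in drought and 11 to 38 in drought against cold, where a lone library was taken to vary like the other groups. It gave medians of -0.17 to 0.02, -0.49 to -0.40 and -0.47 to -0.30, interquartile ranges of 0.48 to 0.55, 0.70 to 0.79 and 0.69 to 0.86, and shares of 18.0% to 18.5% in the control, 15.8% to 18.1% in the cold and 13.5% to 14.0% in the drought samples.

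Scaling and summing moved the drought against cold median to -0.64 (median-of-ratios), -0.37 (each library scaled to a sum of 1000000) and -0.38 (component sums). Component sums, added after the data were seen, gave a drought median of -0.37 and interquartile ranges of 0.43 in cold and 0.74 in drought against cold. A threshold of 250 FPKM gave 213 members, 64, 52 and 107 called members in cold, drought and drought against cold, medians of -0.20 in drought and -0.24 in drought against cold, interquartile ranges of 0.59 in cold and 0.67 in drought, and shares of 24.5%, 22.9% and 19.3% in control, cold and drought. A threshold of 1000 gave 38 members, 4, 14 and 19 called, medians of -0.60 and -0.44, interquartile ranges of 0.33, 0.44 and 0.64, and shares of 12.0%, 11.02% and 8.57%. A mean of at least 500 gave 151 members, 56, 50 and 93 called, medians of -0.32 and -0.34, interquartile ranges of 0.70, 0.80 and 0.97, and shares of 21.9%, 20.8% and 17.2%. The control share was 17.8% without its most abundant unigene and 18.7% when only unigenes at FPKM of at least 1 were summed.

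None of the fold changes of named members that were called or at least 0.3 in size turned sign under an alternative. Of the named members that were neither called nor at least 0.3 in size, 19 of 29 in cold and 14 of 22 in drought turned sign under at least 1 alternative, the 5 smallest changes among them, and 3 and 0 were called under 1, so those are given as library values, with a size range for the 5 smallest.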

Other observations

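Some unigenes outside the set were as abundant as its members in a single treatment, and the following examples were chosen after their values were seen. Among the 16 unigenes that reached 500 FPKM in both drought libraries and no other, c43682_g1 stood highest, at 2588 and 2134 FPKM under drought against 11.4 and 17.6 in control and 28.2 and 17.2 under cold. Among the 37 that did so in both cold libraries only, c62962_g1 stood highest, at 2431 and 2027 FPKM against 211 and 165 in control and 169 and 132 under drought. Among the 6 that did so in both control libraries only, c63618_g2 stood at 849 and 835 FPKM, against 381 and 416 under cold and 392 and 389 under drought. The unigenes at or above 500 FPKM in a library held 23.2% and 22.5% of the sum in control, 22.0% and 24.1% under cold and 18.3% and 18.1% under drought.

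The gap between the 2 cold libraries also lay with the abundant end of the table. The median log2 ratio of cold replicate 2 to cold replicate 1 was 0.21 over the 96 members, 0.00 over the unigenes at 100 to 500 FPKM and -0.02 over all tested unigenes. Unigenes with a mean FPKM under 1 held 6.49% of the sum in cold replicate 1 and 4.75% in cold replicate 2, against 3.34% to 4.35% in the other libraries.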
